A study of Mus musculus with 4 samples.

Results

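Chemokines are small secreted or membrane-anchored proteins that guide leukocytes through G protein-coupled receptors, and their names follow the spacing of the first cysteines (Cxc, Cc and Cx3c). Hepatocytes release several of them when they sense injury, cytokines or bacterial products. The Cxc ligands of the receptor Cxcr2 draw neutrophils, and ligands of Ccr2 draw monocytes. Much of this output is set at transcription by NF-kB, and many chemokine mRNAs are short-lived because RNA-binding proteins target them for decay.

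The levels of 10 chemokine genes were compared between AML12 cells grown as a flat layer (2D) and in Matrigel (3D). The 10 genes, of 31828 in the deposited table, were chosen by name as chemokines that hepatocytes can make, with their TPM in 3D against 2D already known. Their differences between the cultures are therefore given as a description, without p-values. They comprise the Cxcr2 ligands Cxcl1, Cxcl2 and Cxcl5, the other Cxc chemokines Cxcl12 and Cxcl16, the Cc chemokines Ccl2, Ccl7, Ccl20 and Ccl25, and Cx3cl1, the single member of its class.

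AML12 (alpha mouse liver 12) is an immortalized mouse hepatocyte line, derived from a mouse that carried a transgene for human TGF-alpha, so all libraries come from 1 cell line. RNA-seq was performed on 2 libraries from 2D-cultured and 2 from 3D-cultured cells, 4 in all. All cells were kept for 48 h in DMEM and Ham's F12 with 10% fetal calf serum, insulin (10 μg/mL), transferrin (5.5 μg/mL), selenite (5 ng/mL), dexamethasone (40 ng/mL), a glucocorticoid, and penicillin-streptomycin before they were replated in the 2D or 3D form. Hydroxyurea (1 mM), which blocks DNA replication at the G1/S boundary, was present for the last 24 h in 2D, starting at 50% confluence, and for 36 h in 3D, starting after 24 h of growth. Growth form, Matrigel and duration of hydroxyurea thus changed together and cannot be told apart. The labels do not say whether the 2 libraries of a culture came from separate cultures, so the spread between them may be technical.

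The values are TPM, which correct for transcript length and sum to the same total in each library. Levels of different genes can therefore be set side by side, but the sequencing depth is unknown. Each library held between 13891 and 14256 genes at 1 TPM or more. Hepatocyte identity was checked against 8 markers, of which Krt8 and Krt18 were abundant (3220 and 6207 TPM on average in 2D, 1821 and 3297 TPM in 3D), whereas Alb, encoding albumin, stood at 0.819 and 1.20 TPM in the 2D libraries and at 12.7 and 10.0 TPM in the 3D libraries. By the test described with the results, 5 of the 7 tested hepatocyte markers were higher in 3D, Alb among them, and Krt8 and Krt18 were lower. Over all genes tested, 23.4% were higher and 27.1% lower. Krt19 and Krt7, keratins of bile duct cells, were also abundant (1687 and 492 TPM in 2D, 1200 and 313 TPM in 3D). The line thus carried epithelial keratins, those of bile duct cells among them, at a low level of albumin, while Hnf4a, Trf and Ttr were higher in 3D.

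Promoter sequence was not used to choose the genes and is given here. RefSeq promoter windows (GRCm38.p6, 250 bases before to 50 after a gene's start) were matched by symbol for 6 of the 10 genes, namely Cxcl1, Cxcl2, Cxcl12, Ccl20, Ccl25 and Cx3cl1. The entries for Cxcl5, Cxcl16, Ccl2 and Ccl7 were missing. The letters GGANTTTCC, a form of the NF-kB motif, were searched on both strands together with TGANTCA (AP-1) and TTGCNNAA (C/EBP). The NF-kB letters occurred in 1.25% of all 32851 windows of this length, and among the 10 chemokines in the windows of Cxcl1 and Cxcl2, once in each. Cxcl3, which lies between Cxcl5 and Cxcl1 on chromosome 5 and encodes another Cxcr2 ligand, held them as well. The match began 70 bases before the start of Cxcl1, 96 before that of Cxcl2 and 72 before that of Cxcl3. The AP-1 and C/EBP letters, present in 7.81% and 10.8% of all windows, were found in 0 of the 6 matched chemokines.

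Printed next, 5′ to 3′ on the plus strand, are the bases from 130 to 31 before each RefSeq start, with the NF-kB letters in capitals. They cover the 3 neighbouring Cxc genes at chr5:90891115-90891214 (Cxcl1), chr5:90903769-90903868 (Cxcl2) and chr5:90785971-90786070 (Cxcl3), and Ccl20 at chr1:83116636-83116735, shown as a chemokine that was higher in 3D without these letters in its window.
Cxcl1: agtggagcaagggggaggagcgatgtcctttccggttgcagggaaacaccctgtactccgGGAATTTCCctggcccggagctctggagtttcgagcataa
Cxcl2: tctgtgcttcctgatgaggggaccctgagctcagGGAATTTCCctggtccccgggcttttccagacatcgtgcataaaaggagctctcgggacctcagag
Cxcl3: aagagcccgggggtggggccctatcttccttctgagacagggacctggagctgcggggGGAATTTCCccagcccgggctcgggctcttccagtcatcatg
Ccl20: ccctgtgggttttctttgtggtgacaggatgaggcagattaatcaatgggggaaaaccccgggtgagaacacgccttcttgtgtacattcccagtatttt
The 3 Cxc genes carried the same 9 letters, GGAATTTCC. A match is a description of the sequence and does not show that NF-kB was bound there. Other forms of the NF-kB motif were not searched. A window without these letters, such as that of Ccl20, may therefore still hold a site.

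In the 3D-cultured cells, 6 of the 10 chemokines were higher, 1 was lower and 3 were near 0 in both cultures. Cxcl5 differed most, at about 42.3 times its 2D level, and Ccl2 was the most abundant in each culture. Expression was compared with limma on log2(TPM + 1), for genes with a mean of at least 1 TPM over the 4 libraries. Of the 14116 genes tested, 50.5% had an adjusted p-value under 0.05, with 23.4% higher and 27.1% lower in 3D. By the same rule 6 of the 7 tested chemokines were called higher and 1 lower, from which nothing is read because this contrast guided their choice. All 7 reached 1 TPM on average in each culture, so none passed the filter through 1 culture alone. The libraries of the cultures did not overlap for 7 of the 7 tested chemokines, against 77.5% of all genes tested. With the untested Cxcl16, this held for 8 of the 10. The median log2 fold change of the 7 tested chemokines was 2.01, against -0.04 over all genes tested.

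**Figure D1:**
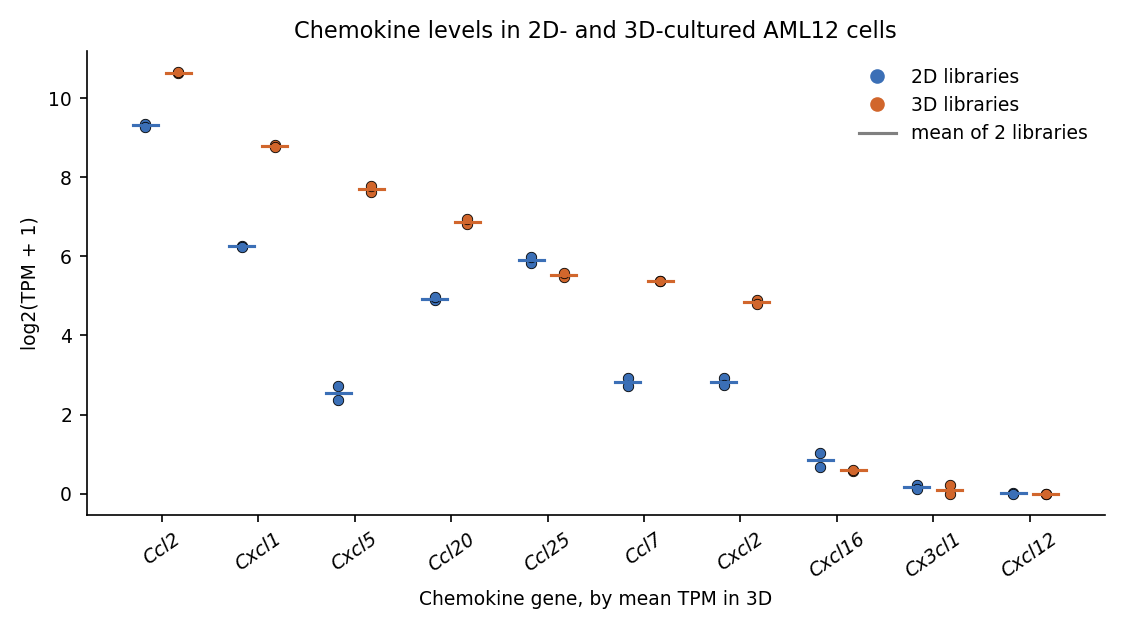
Levels of the 10 chemokine genes in each library, as log2(TPM + 1), with 2D libraries in blue, 3D libraries in orange and a line at the mean of the 2 libraries. The 3D libraries lie above the 2D libraries for the 6 genes Ccl2, Cxcl1, Cxcl5, Ccl20, Ccl7 and Cxcl2 and below them for Ccl25, while Cxcl16, Cx3cl1 and Cxcl12 lie near 0 in both cultures.

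The ligands of Cxcr2 are described first. Cxcl5 (ENSMUSG00000029371, chromosome 5, 90759360 to 90761624, GRCm38), a neutrophil attractant, was measured at 4.16 and 5.64 TPM in the 2D libraries and at 195 and 219 TPM in the 3D libraries. Both 3D libraries stood far above both 2D libraries, with a log2 fold change of 5.15 (SE 0.14). It was the seventh most abundant of the 10 chemokines in 2D and the third in 3D.

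Cxcl1 (ENSMUSG00000029380, chromosome 5, 90891241 to 90893115), which is induced early in the acute-phase response and likewise draws neutrophils, was at 76.3 and 74.2 TPM in 2D and at 447 and 432 TPM in 3D. The replicates were close together and the cultures did not overlap, at a log2 fold change of 2.53 (SE 0.04). Cxcl2 (ENSMUSG00000058427, chromosome 5, 90903871 to 90905938), a close relative of Cxcl1 with the same receptor, was far less abundant, at 6.56 and 5.70 TPM in 2D and 28.6 and 26.6 TPM in 3D. Its log2 fold change was 2.01 (SE 0.09), again with no overlap between cultures. How reads that match more than 1 of these related genes were divided is not given in the sources used here.

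Among the Cc chemokines, Ccl2 (ENSMUSG00000035385, chromosome 11, 82035571 to 82037453), the main attractant of monocytes through Ccr2, had the highest level and the smallest ratio of the 6 genes higher in 3D. The 2D libraries held it at 652 and 618 TPM and the 3D libraries at 1574 and 1619 TPM, a log2 fold change of 1.33 (SE 0.04). Ccl7 (ENSMUSG00000035373, chromosome 11, 82045712 to 82047525), which also signals through Ccr2 and lies next to Ccl2, had 6.54 and 5.59 TPM in 2D and 40.2 TPM in each 3D library. The log2 fold change of Ccl7 was 2.55 (SE 0.09). Thus both Ccr2 ligands had 3D libraries above the 2D libraries, but Ccl2 was far more abundant in either culture, at 635 against 6.07 TPM in 2D and 1596 against 40.2 TPM in 3D.

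Ccl20 (ENSMUSG00000026166, chromosome 1, 83116766 to 83119167), the ligand of Ccr6 on dendritic cells and subsets of lymphocytes, reached 28.8 and 30.1 TPM in 2D and 111 and 121 TPM in 3D. Its log2 fold change was 1.95 (SE 0.06), with both 3D libraries above both 2D libraries. Ccl25 (ENSMUSG00000023235, chromosome 8, 4325210 to 4360020), the ligand of Ccr9 best known from thymus and small intestine, went the other way, with 55.7 and 62.1 TPM in 2D and 43.5 and 46.7 TPM in 3D. The cultures did not overlap, but the difference was small, at a log2 fold change of -0.38 (SE 0.08). Ccl25 overlaps Elavl1 on the opposite strand. Elavl1 averaged 59.1 TPM in 2D against 58.0 TPM in 3D. The libraries were stranded and were aligned with their strand. Without 3D replicate 1 the log2 fold change of Ccl25 was -0.33, and Ccl25 no longer counted among those past the threshold.

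The 3 remaining chemokines were not tested, since their means were under 1 TPM. Cxcl16 (ENSMUSG00000018920, chromosome 11, 70453983 to 70459984), a membrane-anchored ligand of Cxcr6, had 0.585 and 1.06 TPM in 2D and 0.499 and 0.517 TPM in 3D. Cxcl16 overlaps Zmynd15 on the opposite strand, which averaged 1.38 TPM in 2D and 1.01 TPM in 3D. Cx3cl1 (ENSMUSG00000031778, chromosome 8, 94772009 to 94782427), also membrane-anchored and known as fractalkine, had 0.155 and 0.0891 TPM in 2D and was listed at 0 and 0.156 TPM in 3D. Cxcl12 (ENSMUSG00000061353, chromosome 6, 117168535 to 117181367), the homeostatic ligand of Cxcr4 that liver stroma makes in abundance, was listed at 0 in all but 1 library, a 2D library with 0.011 TPM. Without read counts, no detection limit can be given for these genes.

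The order of the levels also differed. In 2D it ran Ccl2, Cxcl1, Ccl25, Ccl20, Cxcl2, Ccl7, Cxcl5, Cxcl16, Cx3cl1 and Cxcl12, and the ranges of Cxcl2, Ccl7 and Cxcl5 overlapped from each to the next. In 3D it ran Ccl2, Cxcl1, Cxcl5, Ccl20, Ccl25, Ccl7, Cxcl2, Cxcl16, Cx3cl1 and Cxcl12, and the ranges of neighbours overlapped only between Cx3cl1 and Cxcl12. With 2 libraries per culture, a range is no more than the gap between 2 values.

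Summed over the 10 genes, the chemokine level was 831 and 802 TPM in the 2D libraries and 2440 and 2506 TPM in the 3D libraries. The ratio of the means was 3.03. The 3 Cxcr2 ligands among the 10 summed to 87.0 and 85.5 TPM in 2D and to 671 and 678 TPM in 3D. The ratio of their means was 7.82. Their share of the summed level was 10.5% and 10.7% in 2D and 27.5% and 27.1% in 3D. Cxcl3, another Cxcr2 ligand, is outside the 10 and so not counted here. It averaged 46.6 TPM in 2D and 66.3 TPM in 3D, a ratio of 1.42. Ccl2 made up 78.5% and 77.0% of the sum in 2D and 64.5% and 64.6% in 3D, so it remained the largest component in each library. Shares of Ccl25 were 6.70% and 7.74% in 2D and 1.78% and 1.86% in 3D. In RNA from a whole culture, more cells that make a chemokine and more RNA per cell cannot be told apart.

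**Figure D2:**
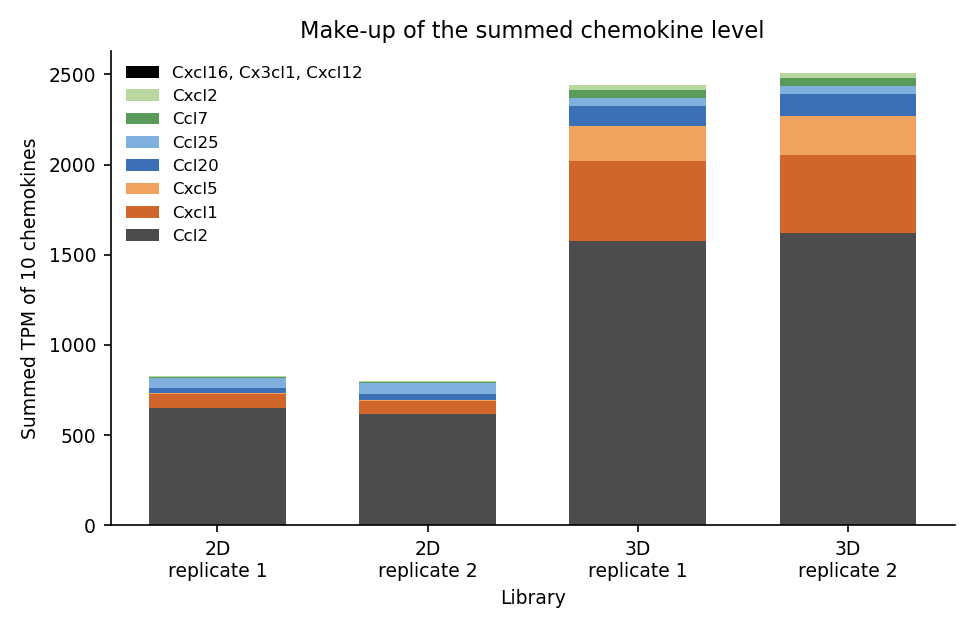
Summed TPM of the 10 chemokines in each of the 4 libraries, stacked by gene from 0. The 2D libraries reach 831 and 802 TPM and the 3D libraries 2440 and 2506 TPM, and the segments of Cxcl1 and Cxcl5 take a larger share of the 3D bars.

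Genes of the chemokine system outside the 10 were taken from lists of other chemokines, receptors and proteases and tested in the same fit. Of 28 other chemokines 25 were in the table and 11 were tested. Of these, 6 were higher and 3 lower in 3D at an adjusted p-value under 0.05 (limma), with a median log2 fold change of 0.50. Over all genes tested, 23.4% were higher and 27.1% lower, with a median of -0.04. The 14 untested chemokines stayed below 1 TPM in each library. One of the 11, Ccl6, passed the filter through 1 culture alone.

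Cxcl17, a mucosal chemokine, had the largest rise of the tested ones on the log2(TPM + 1) scale, from 6.31 and 4.56 TPM to 23.9 and 21.7 TPM (log2 fold change 1.90, SE 0.15, limma adjusted p 0.00121). It overlaps an antisense gene. Ccl5, which draws T cells, had the larger ratio of TPM, 5.22 against 4.19, but the smaller rise on that scale, from 0.898 and 1.85 TPM to 6.61 and 7.75 TPM (log2 fold change 1.81, SE 0.23, limma adjusted p 0.00376). Ccl6, a myeloid attractant, had the largest fall on the same scale, from 5.91 and 6.37 TPM to 0.606 and 0.734 TPM (log2 fold change -2.10, SE 0.12, limma adjusted p 0.00054). Ccl27a, an epithelial chemokine of skin, had 16.7 and 15.4 TPM in 2D and 14.1 and 13.5 TPM in 3D and did not pass the threshold (limma adjusted p 0.0867). It overlaps Il11ra1 on the opposite strand. The family as a whole thus did not move in 1 direction. Added over all 35 chemokines in the table, the level was 934 and 903 TPM in 2D and 2576 and 2648 TPM in 3D, of which the 10 chemokines made up 88.9% in each 2D library and 94.7% and 94.6% in the 3D libraries.

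Several of the 10 genes lie side by side. Cxcl5, Ppbp, Pf4, Cxcl3, Cxcl15, Cxcl1 and Cxcl2 are the protein-coding genes in this order on the plus strand of chromosome 5, within 147 kb, and their differences between cultures were unequal. Cxcl3 was at 46.6 TPM in each 2D library and at 63.7 and 68.9 TPM in 3D, a rise of 0.50 on the log2 scale (SE 0.06, limma adjusted p 0.00318). Ppbp, a platelet chemokine, rose by 0.56 (SE 0.11, limma adjusted p 0.0159) from 2.32 and 2.49 TPM to 3.75 and 4.28 TPM, a call lost without 2D replicate 1 (adjusted p 0.0604) and without 3D replicate 2 (0.0826). Pf4 and Cxcl15 were listed at 0 in both 2D libraries and at most at 0.415 TPM in 3D, and were not tested. The log2 fold changes of Cxcl5 (5.15), Cxcl1 (2.53) and Cxcl2 (2.01) were each larger than those of Cxcl3 and Ppbp, the tested genes between them. Cxcl5, Cxcl1 and Cxcl2 are among the 10, chosen with this contrast known, so nothing is read from the gap.

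On chromosome 11, Ccl2 and Ccl7 are followed on the plus strand by Ccl11, Ccl12 and Ccl8, which were looked at after their values were seen. Ccl12, another Ccr2 ligand of the mouse, fell from 2.06 and 3.02 TPM to 1.10 and 1.22 TPM (log2 fold change -0.70, SE 0.18, limma adjusted p 0.0282). The call of Ccl12 was lost with no filter (adjusted p 0.0623), without 2D replicate 2 (0.0851), without 3D replicate 1 (0.105) and without 3D replicate 2 (0.0826), with a negative log2 fold change in each. Ccl8 had 1.86 and 1.93 TPM in 2D and 3.24 and 2.09 TPM in 3D and was not past the threshold (limma adjusted p 0.212). Ccl11, an eosinophil attractant, stayed at or below 0.116 TPM. The 5 genes lie within 81.2 kb.

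**Figure D3:**
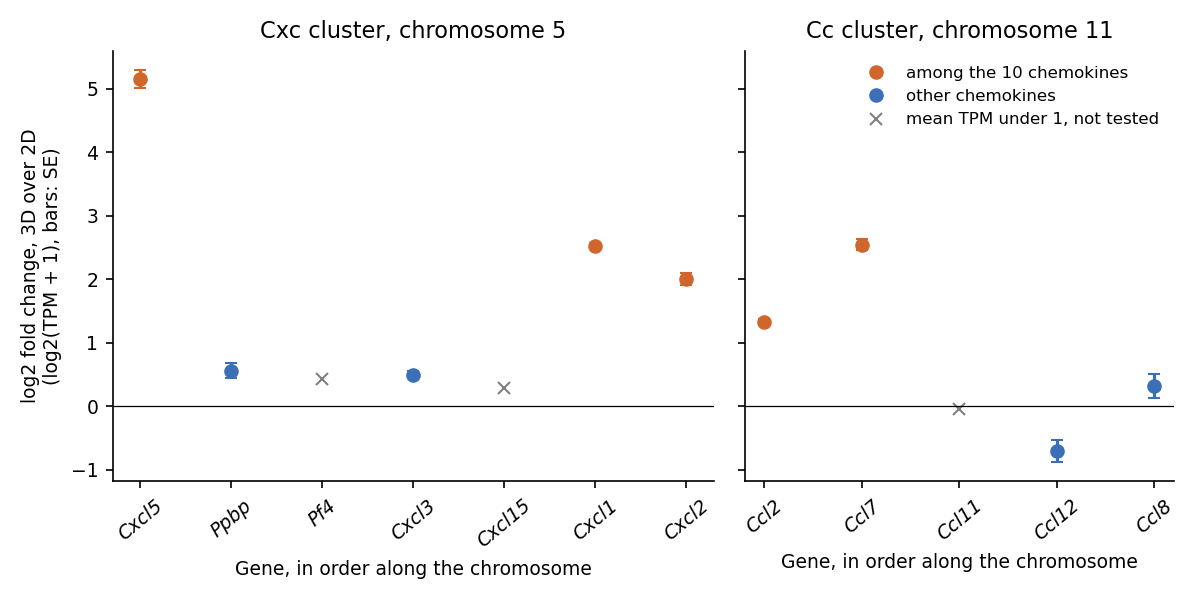
Log2 fold change of 3D over 2D on the log2(TPM + 1) scale for the chemokine genes of the chromosome 5 and chromosome 11 clusters, in their order along the chromosome, with the standard error from limma as bars. Genes among the 10 (orange) lie between 1.33 and 5.15, the other tested genes (blue) between -0.70 and 0.56, and crosses mark genes too low to test. The 10 were chosen with this contrast known.

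Most chemokine receptors in the table were scarce. Of 23 chemokine receptors 18 were in the table, and 15 of these had a mean under 1 TPM. Cxcr2 had 0.114 and 0.187 TPM in 2D and 0.120 and 0.204 TPM in 3D, and Ccr2 was listed at 0 in all but 1 library. Ccr6 and Ccr9, the receptors of Ccl20 and Ccl25, did not exceed 0.121 and 0.323 TPM. These 4 were picked for their ligands among the 10. The 3 tested receptors were Cxcr1, Ackr3 and Ccrl2, of which 1 was higher and 0 lower. Ccrl2, an atypical receptor that does not signal through G proteins, rose from 1.79 and 1.62 TPM to 3.77 and 4.85 TPM (log2 fold change 0.97, SE 0.15, limma adjusted p 0.00632). Cxcr1, a relative of Cxcr2, had 7.40 and 8.94 TPM in 2D and 8.01 and 7.49 TPM in 3D (limma adjusted p 0.674). For Ackr3, a scavenger of Cxcl12, the values were 2.16 and 2.45 TPM in 2D and 1.61 and 2.11 TPM in 3D (limma adjusted p 0.276).

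Of 3 proteases that process chemokines, 2 were tested. Adam10, which sheds Cxcl16 and Cx3cl1 from the membrane, rose from 58.3 and 61.3 TPM to 76.1 and 78.3 TPM (log2 fold change 0.36, SE 0.05, limma adjusted p 0.00521). Adam17, a sheddase with overlapping substrates, measured 41.6 and 42.1 TPM in 2D and 48.3 and 46.6 TPM in 3D (log2 fold change 0.18, SE 0.05, limma adjusted p 0.0426). This call was lost under 7 of 12 alternatives, the replicate block among them (adjusted p 0.0999). Dpp4, which cleaves Cxcl12, stayed at or below 0.0921 TPM.

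Genes that control chemokine transcription were compared next. All 15 genes for NF-kB subunits, their inhibitors and kinases were tested. In 3D 9 were higher and 2 lower, against 23.4% and 27.1% of all genes tested. The median log2 fold change of the 15 was 0.30, against -0.04 over all genes tested. Bcl3, a nuclear IkB protein that binds the p50 and p52 subunits, rose most, from 62.0 and 63.0 TPM to 144 and 117 TPM (log2 fold change 1.04, SE 0.11, limma adjusted p 0.0023). The replicates of Bcl3 in 3D differed more than those in 2D, but both lay above the 2D libraries. Rela, the main activating subunit, had 400 and 423 TPM in 2D and 441 and 442 TPM in 3D (limma adjusted p 0.102), and Nfkbia, the inhibitor IkB-alpha and itself a target of NF-kB, had 393 and 374 TPM in 2D and 374 and 398 TPM in 3D (limma adjusted p 0.895). Nfkb2, encoding the p52 precursor, was at 593 and 616 TPM in 2D and 551 and 547 TPM in 3D, a fall of 0.14 on the log2 scale (SE 0.04, limma adjusted p 0.0321) whose call was lost under 6 of 12 alternatives, with the replicate block at 0.0857. Of the other subunits, Relb rose from 114 and 141 TPM to 264 and 217 TPM (log2 fold change 0.91, SE 0.14, limma adjusted p 0.00679). Nfkb1 rose from 65.0 and 78.5 TPM to 98.2 and 101 TPM (log2 fold change 0.48, SE 0.10, limma adjusted p 0.0162). Rel did not pass the threshold (limma adjusted p 0.457). Adam17, Bcl3 and Nfkb2 each overlap a gene on the opposite strand.

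Of 22 inducing cytokines, their receptors and adaptors, 16 were tested. In 3D 8 were higher and 2 lower, against 23.4% and 27.1% of all genes tested. The median log2 fold change of the 16 was 0.24, against -0.04 over all genes tested. Cd14, the co-receptor for bacterial lipopolysaccharide, rose from 113 and 114 TPM to 271 TPM in each 3D library (log2 fold change 1.25, SE 0.04, limma adjusted p 0.000215). Tnfrsf1a, the main TNF receptor, rose from 119 and 127 TPM to 204 and 214 TPM (log2 fold change 0.76, SE 0.05, limma adjusted p 0.00084). Il1rn, an antagonist of the IL-1 receptor, had the largest change of the tested genes of the list at a pseudocount of 1, from 5.94 and 5.16 TPM to 17.0 and 12.8 TPM (log2 fold change 1.27, SE 0.16, limma adjusted p 0.00365). At a pseudocount of 5 its log2 fold change was 0.91, below the 1.22 of Cd14. Il1rn stood at 1.08 without 3D replicate 1 and at 1.18 without 2D replicate 2, below the 1.25 of Cd14 in each. Il17rc, a subunit of the IL-17 receptor, fell from 170 and 174 TPM to 101 and 103 TPM (log2 fold change -0.75, SE 0.04, limma adjusted p 0.000526). Among the cytokine genes themselves Il6 passed the filter and rose from 5.49 and 4.75 TPM to 9.23 and 10.9 TPM (log2 fold change 0.85, SE 0.12, limma adjusted p 0.00541). Il1a, Il1b, Il17a and Tnf had means under 1 TPM. Tnf, chosen after its values were seen, had 0.0769 and 0.0366 TPM in 2D and 1.10 and 1.51 TPM in 3D, which left its mean under the filter, and Il1b did not exceed 0.206 TPM.

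The RNA-binding proteins that act on chemokine mRNAs formed the last of these lists, with 2 of 5 genes higher, 0 lower and a median of 0.09. Over all genes tested, 23.4% were higher and 27.1% lower, with a median of -0.04. Zc3h12a, the endonuclease Regnase-1, which cleaves inflammatory mRNAs and is itself induced by Ccl2 and IL-1, rose from 6.81 and 6.91 TPM to 26.8 and 27.5 TPM (log2 fold change 1.84, SE 0.07, limma adjusted p 0.00028). Zfp36, the decay factor tristetraprolin, which binds AU-rich mRNAs, rose from 23.8 and 25.3 TPM to 32.7 and 31.4 TPM (log2 fold change 0.37, SE 0.06, limma adjusted p 0.00969), a call lost without 3D replicate 1 (adjusted p 0.0600). Its relatives Zfp36l2 and Zfp36l1, and Elavl1, which stabilizes AU-rich mRNAs, did not pass the test (limma adjusted p 0.237, 0.838 and 0.746), their differences being 0.09, 0.01 and -0.03 on the log2 scale.

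**Figure D4:**
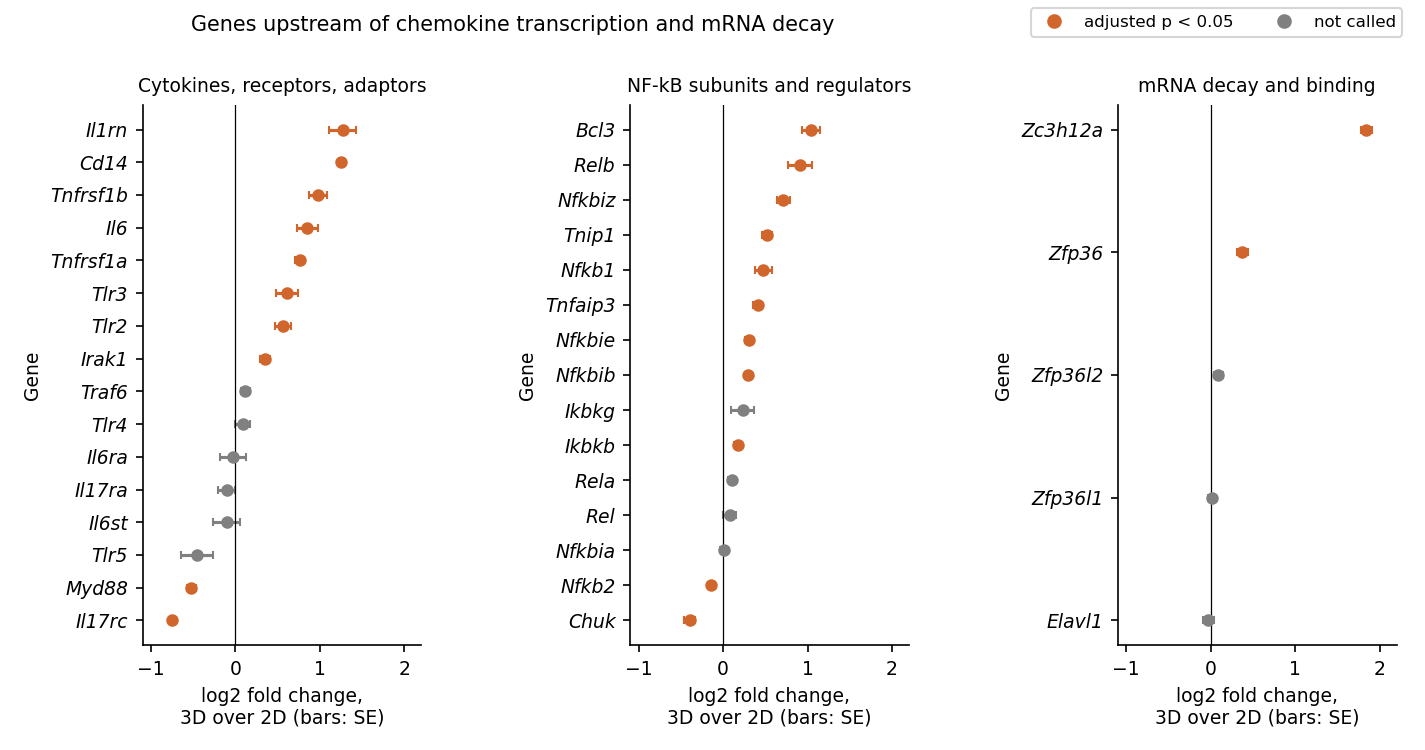
Log2 fold change of 3D over 2D on the log2(TPM + 1) scale, with the standard error from limma as bars, for tested genes of the lists of inducing cytokines, receptors and adaptors (16 genes), NF-kB subunits and regulators (15 genes) and mRNA decay and binding factors (5 genes). Orange marks an adjusted p-value under 0.05, which 8, 9 and 2 genes passed with higher levels in 3D and 2, 2 and 0 with lower levels.

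Tested genes outside the 10 were ranked by likeness to the mean profile of Cxcl1, Cxcl2 and Cxcl5 over the 4 libraries. Predicted-gene and Rik symbols were left out. The nearest were Fgf1, Lcn2 and Eps8l3. Their Euclidean distances between values of log2(TPM + 1), each centred on its mean, were 0.0797, 0.172 and 0.232, against 0.702, 1.24 and 1.94 for Cxcl1, Cxcl2 and Cxcl5 themselves. Lcn2, the iron-binding acute-phase protein lipocalin 2, had 18.7 and 19.2 TPM in 2D and 214 and 204 TPM in 3D. Fgf1, a growth factor, had 2.50 and 2.54 TPM in 2D and 31.9 and 30.1 TPM in 3D, and Eps8l3 had 0.365 and 0.288 TPM in 2D and 9.58 and 9.91 TPM in 3D. Eps8l3 passed the filter through 3D alone. With 2 cultures, the likeness of these genes reflects little more than a difference of similar size.

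Several other liver cells make chemokines, and their markers were therefore measured in the same libraries. The 10 leukocyte markers summed to 25.7 and 24.8 TPM in 2D and 32.1 and 27.9 TPM in 3D, most of it Cd68, a lysosomal protein (18.3 to 25.5 TPM). The defining markers Ptprc and Adgre1 were at most 0.296 and 0.0575 TPM, and Adgre1 was listed at 0 in 3 of the 4 libraries. Of the 4 tested leukocyte markers, S100a8 was called higher and Cd3e lower, at levels of at most 4.07 and 2.00 TPM. Cd3e passed the filter through 2D alone. The 6 endothelial markers summed to between 1.00 and 2.22 TPM, and 0 were tested. Of 6 stellate cell and fibroblast markers in the table, Des alone was tested and fell from 33.7 and 36.1 TPM to 18.8 and 17.3 TPM, while Pdgfrb stayed at or below 0.765 TPM and Col1a1 at or below 0.594 TPM. Of the 5 bile duct markers 3 were tested, Krt19 and Krt7 fell and Sox9 rose, whereas Epcam was listed at 0 in 3 of the 4 libraries. The part of other cells in the chemokine levels was not tested beyond these values.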

How the data were processed

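RNA-seq libraries (KAPA stranded mRNA kit) of 2D- and 3D-cultured AML12 cells were used, 2 of each. Per the labels and the study's methods, the authors used cutadapt 1.8.3 and then Trimmomatic 0.36 for trimming, HISAT2 2.0.5 for alignment (GRCm38) and StringTie 1.3.4 for quantification of Ensembl release 93 genes, and the deposited values are TPM per library, without pooling. The deposited fold changes and p-values of the authors' own DESeq2 comparison, 2 columns, were not used. TPM hold no depth, and a value of 0 may be a failed estimate.

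The 10 genes, the gene lists (other chemokines, receptors, proteases, NF-kB, inducers, mRNA decay, markers of 5 cell types), tests and alternatives were chosen with earlier results of these data known. The test was limma 3.58.1 (R 4.3.3) on log2(TPM + 1) for genes whose mean reached 1 TPM (trend and robust variance, two-sided, Benjamini-Hochberg adjustment over all 14116 genes), with culture as the only factor. Fold changes on this scale understate changes of low genes. An exact permutation test of 2 against 2 libraries cannot go below 0.333 and was not used. Beside the 10 genes, up to 3 genes per list with the highest mean TPM and the called gene with the largest change were named, as were the 3 genes nearest in profile and those between clustered chemokines. Lyz2 of the leukocyte list and Pecam1, Stab2 and Tek of the endothelial list also met this rule, but entered only counts and sums. Other names were chosen after their values were seen. All 10 positions matched GENCODE M21. The script was checked on simulated data. Alternatives were pseudocounts of 0.1 and 5, no filter or a mean of at least 5 TPM, median centring, quantile normalization, a replicate block, a constant prior variance, rescaled TPM and each library left out. Python 3.11.15 and matplotlib 3.10.9 were used for summaries and figures.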

Additional observations from a re-analysis of the deposited data

How the results depend on the processing

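All 84 fold changes of the 7 tested chemokines under 12 alternatives kept their sign. The count of chemokines called lower was 0 without 3D replicate 1, where Ccl25 was at -0.33, and 1 in the other fits. The difference of Cxcl5 was 4.42 at a pseudocount of 5 and 5.39 at 0.1. The genes called numbered 7122, and 4720 to 5954 with a library left out, the lowest without 3D replicate 1. With the replicate block, which the same-numbered libraries do not justify as paired (correlation of their deviations -0.055), 6248 genes were called, the proteases called higher went from 2 to 1 and the NF-kB genes called lower from 2 to 1. The same 2 counts were 1 with no filter and 1 with a constant prior variance. With a mean of at least 5 TPM, 3 other chemokines were higher and 1 lower (6 and 3 without it), 0 receptors were higher, and 0 leukocyte markers were higher and 0 lower, since fewer genes were tested. With no filter 1 endothelial marker was called higher. In some fits with a library left out, fewer NF-kB genes, inducers and other chemokines were called higher. With a library left out, which leaves 1 culture with a lone library assumed to vary like the others, proteases called higher were 1, NF-kB genes called lower 1 to 2, decay factors higher 1 to 3 (1 without 3D replicate 1, 3 without 2D replicate 2), leukocyte markers higher 0 to 2 (0 without 2D replicate 2 or 3D replicate 1, 2 without 3D replicate 2). The ratio of the summed 3 Cxcr2 ligands among the 10 was 7.96 after rescaling, against 7.82. The cause was not tested. Alternatives were also computed for the 33 tested genes picked from the lists by level or largest change. Of their 390 values, 6 had another sign and 18 lay on the other side of the threshold, mostly Adam17 and Nfkb2. These counts leave out other named genes, Ccl5, Ccl8, Ccl12, Il6, Ppbp and Zfp36 among them. The calls lost for Ccl12, Ppbp and Zfp36 are given with those genes. The median of all genes stayed within 0.1 of 0 under each scaling.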
